A study of Rattus norvegicus with 10 samples.

Results

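Integrins, laminins and nidogens are the receptors and matrix proteins through which cells hold on to basement membranes. An integrin is a pair of an alpha and a beta chain that spans the plasma membrane, binds matrix outside and is tied to actin or intermediate filaments inside. A laminin is a cross of an alpha, a beta and a gamma chain that assembles into the basement membrane sheet, and a nidogen is the linker that joins laminin to type IV collagen. In the arterial wall these proteins surround each smooth muscle cell, whereas in epithelia the alpha6-beta4 integrin anchors cells to the laminin that holds the beta3 chain.

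The members were all probe sets whose platform annotation names 1 gene with an integrin alpha or beta symbol, a laminin chain symbol or Nid1 or Nid2. This rule used names only, and it gave 57 probe sets of 38 genes among 31099 probe sets on the array. It also matched 6 probe sets of 4 genes that are not integrin chains: Itgb1bp1 and Itgb1bp2, which bind the tail of the beta1 chain, Itgb3bp, a kinetochore protein also known as CENPR, and Itgbl1, a secreted protein with integrin-like repeats. Tests were limited to probe sets with at least 2 arrays at or above log2 4.82, the 40th percentile of all values, which 48 of the 57 members passed, covering 35 genes. Of these 48, 12 passed only through the KD mutant arrays described next.

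Gene expression was measured in A7r5 cells, a vascular smooth muscle line taken from embryonic rat aorta, on single-colour Affymetrix rat arrays with 2 arrays for each of 5 stable transfectants. The transfectants carried human BMPR2 with a mutation in the extracellular domain (ED mutant, T354G), in the cytoplasmic tail (CD mutant, 2579-2580delT) or in the kinase domain (KD mutant, C994T), human wild-type BMPR2, or empty vector. The titles of the 2 empty vector samples call them native A7r5, whereas their transfection field and description name the empty vector, which is followed here, so every comparison with empty vector rests on those fields. BMPR2 signals for bone morphogenetic proteins through Smads, and inherited BMPR2 mutations are a known cause of pulmonary arterial hypertension. All cells were normoxic and about 50% confluent in 10% serum, and the transfected receptor came on top of the rat cells' own Bmpr2; the sources used here do not say whether a line was a single clone or whether a pair of arrays had separate cultures, so p-values cover only array-to-array spread, possibly a technical one. Values are the authors' log2 RMA summaries. A difference counted as changed at an adjusted p under 0.05 in limma, over all 22502 tested probe sets.

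The KD mutant arrays differed from the other 8 as a whole, with correlations across probe sets of 0.709 to 0.719 against 0.992 to 0.996 among those 8. Both KD mutant arrays lay above all 8 others for 6 of 10 smooth muscle markers and below for 2, above for 5 of 8 fibroblast markers and below for 3, and above for 1 of 11 epithelial markers and below for 8. Of all probe sets 27.3% lay above all 8 others and 59.9% below. The mean of Tagln was 11.33 in the KD mutant and 4.98 over the other 8 arrays, but Smtn, also of smooth muscle, averaged 8.34 against 10.41. Cdh1, E-cadherin, averaged 5.87 against 9.71, but Krt7, also epithelial, 11.94 against 7.32. Whether the KD mutant arrays differ through the mutation or through another cell population or batch cannot be told apart, and this holds for every KD mutant value below. On the other 8 arrays 3 of 10 smooth muscle markers (Cnn1, Lmod1 and Myocd) lay below the filter level in every group, and 9 of 11 epithelial markers lay above it. The 8 arrays thus carry the label of a smooth muscle line with 3 of its 10 markers dim and Tagln, at 4.98, just above the filter level of 4.82. Lmod1 and Myocd lay below the filter level on the KD mutant arrays too, at 3.82 and 4.68. Smtn and Cald1 averaged 10.41 and 10.40 on the 8 arrays. Every comparison below that leaves out the KD mutant rests on those 8 arrays, although the KD mutant arrays entered the shared estimate of the spread, and fits without them are given where they change a call.

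**Figure D1:**
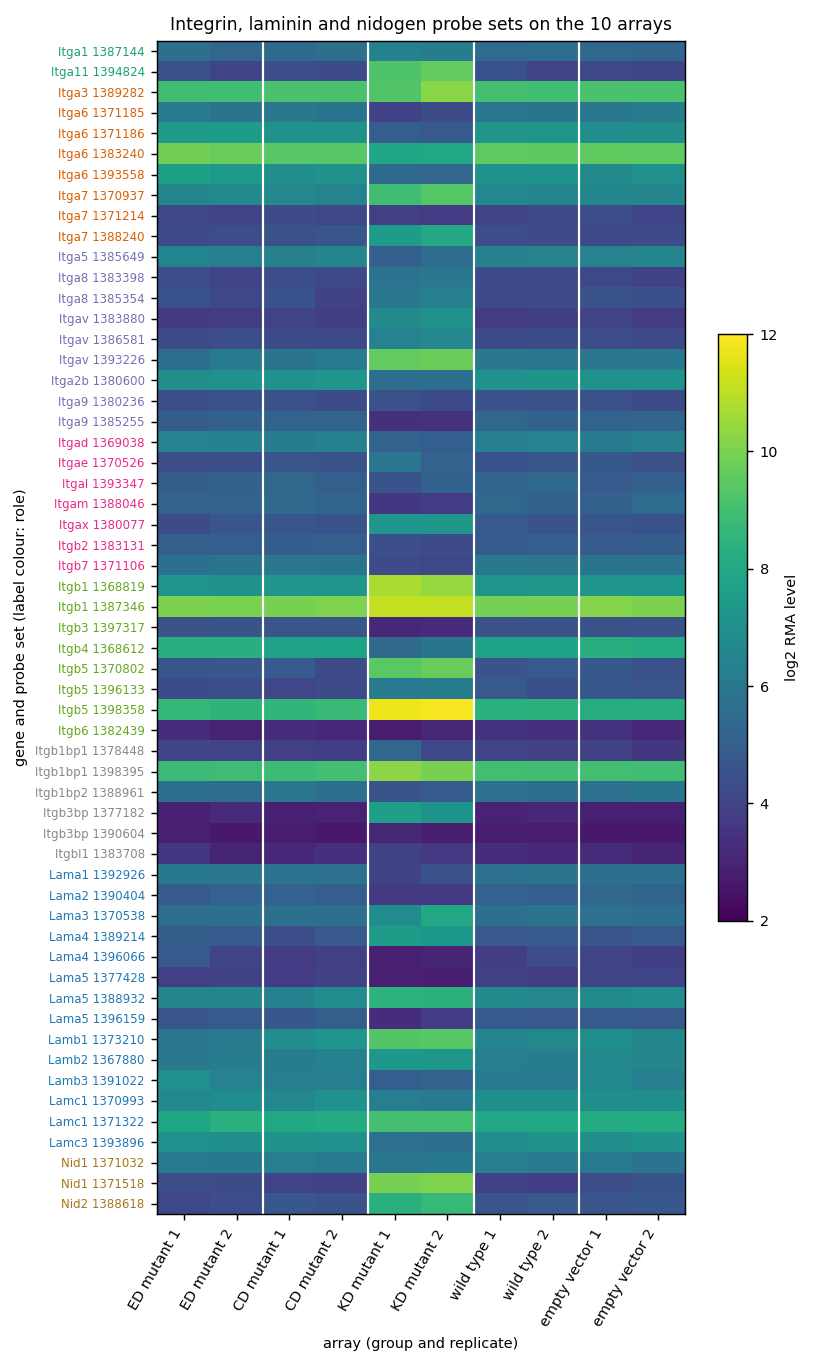
Log2 RMA level of each of the 57 member probe sets (rows, label colour by role) on the 10 arrays (columns, by group and replicate). The KD mutant columns differ from the rest in most rows, as for Nid1 1371518, at 9.93 and 10.06 against 3.84 to 4.58 on the other 8, whereas the other 4 groups look alike at this scale.

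Among the other 8 arrays the member with the lowest adjusted p was Lamb1, between the ED and CD mutants. The promoters of Lamb1 and Lamb3 are shown first because the ED mutant had the lowest mean of Lamb1 and the highest of Lamb3, although Lamb3 did not pass a test. Lamb1 encodes the beta1 chain of the laminins of vessels and most other tissues, and Lamb3 the beta3 chain of the epithelial anchoring laminin. Each sequence runs 5′ to 3′ on the plus strand from 250 bases before to 50 after the RefSeq gene start in the rat build GRCr8, at chr6:53562846-53563145 for Lamb1 and chr13:107362303-107362602 for Lamb3. Capitals mark matches on either strand to the letters CAGAC, the Smad box, and GGCGCC, the GC-rich element that BMP-activated Smads are known to bind.
Lamb1: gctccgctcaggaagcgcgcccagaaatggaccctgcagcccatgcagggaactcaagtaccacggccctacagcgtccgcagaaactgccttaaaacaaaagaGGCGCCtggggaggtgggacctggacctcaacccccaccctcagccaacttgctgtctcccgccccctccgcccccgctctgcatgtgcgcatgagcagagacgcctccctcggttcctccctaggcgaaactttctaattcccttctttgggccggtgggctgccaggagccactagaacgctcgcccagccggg
Lamb3: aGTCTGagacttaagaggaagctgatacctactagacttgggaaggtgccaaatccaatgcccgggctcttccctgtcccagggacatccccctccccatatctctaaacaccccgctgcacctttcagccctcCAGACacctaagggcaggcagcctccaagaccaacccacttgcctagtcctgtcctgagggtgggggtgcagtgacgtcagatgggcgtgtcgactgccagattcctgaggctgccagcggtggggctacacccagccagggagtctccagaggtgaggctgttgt
The Lamb1 window held 1 GC-rich element, 146 bases before the start, and no Smad box. The Lamb3 window held 2 Smad boxes, 249 and 116 bases before the start, and no GC-rich element. Of 33469 promoters of the same length, 50.1% held a Smad box and 11% a GC-rich element, and among the 29 member genes whose promoter RefSeq gave these numbered 21 and 6. The GC content of the windows had a median of 58.7% over these 29 genes and 51.7% over all promoters, and these matches describe letters, not binding.

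Lamb1 was lower in the ED mutant than in the CD mutant. It read 5.92 and 6.14 on the ED mutant arrays, 6.92 and 7.21 on the CD mutant arrays, 6.52 and 6.66 with wild-type BMPR2 and 6.97 and 6.58 with empty vector. Both ED mutant arrays lay below all 6 of the others, and both CD mutant arrays lay above the wild-type pair. The ED mutant stood 1.03 lower than the CD mutant on the log2 scale, a 2.05-fold difference (log2 difference -1.03, SE 0.148, adjusted p = 0.0109 in limma). Against wild type the ED mutant difference was -0.56 (adjusted p = 0.304) and the CD mutant difference 0.48 (adjusted p = 1), so neither mutant passed against the wild-type receptor. Against empty vector the ED mutant difference was -0.74 (adjusted p = 0.0568). Without any 1 of the 4 ED and CD mutant arrays Lamb1 no longer passed between the 2 mutants, with differences of -1.18 to -0.89 and adjusted p from 0.055 to 0.167.

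Lamb2, the beta2 chain found in the basement membranes of muscle, nerve synapse and kidney glomerulus, read 5.99 and 6.19 in the ED mutant, 6.25 and 6.38 in the CD mutant, 6.30 and 6.24 with wild type and 6.69 and 6.57 with empty vector. These 6 arrays with a BMPR2 construct lay below both empty vector arrays, while the KD mutant arrays, at 7.32 and 7.31, lay above them. The differences from empty vector were -0.54 in the ED mutant (adjusted p = 0.0568), -0.31 in the CD mutant (adjusted p = 0.417) and -0.35 with wild type (adjusted p = 0.525), so none passed the test, and the 3 share the same empty vector arrays. Lamb3 read 7.01 and 6.45 in the ED mutant, 6.27 and 6.31 in the CD mutant, 6.09 and 6.14 with wild type and 6.66 and 6.31 with empty vector. The ED mutant pair differed by more within the group than from empty vector, and stood 0.62 above wild type (SE 0.171, adjusted p = 0.335). Of the 12 laminin probe sets tested, 1 changed between the ED and CD mutants, beside 0.351% of all tested probe sets, and 0 in the other 5 comparisons that leave out the KD mutant, beside 0% to 0.529%.

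**Figure D2:**
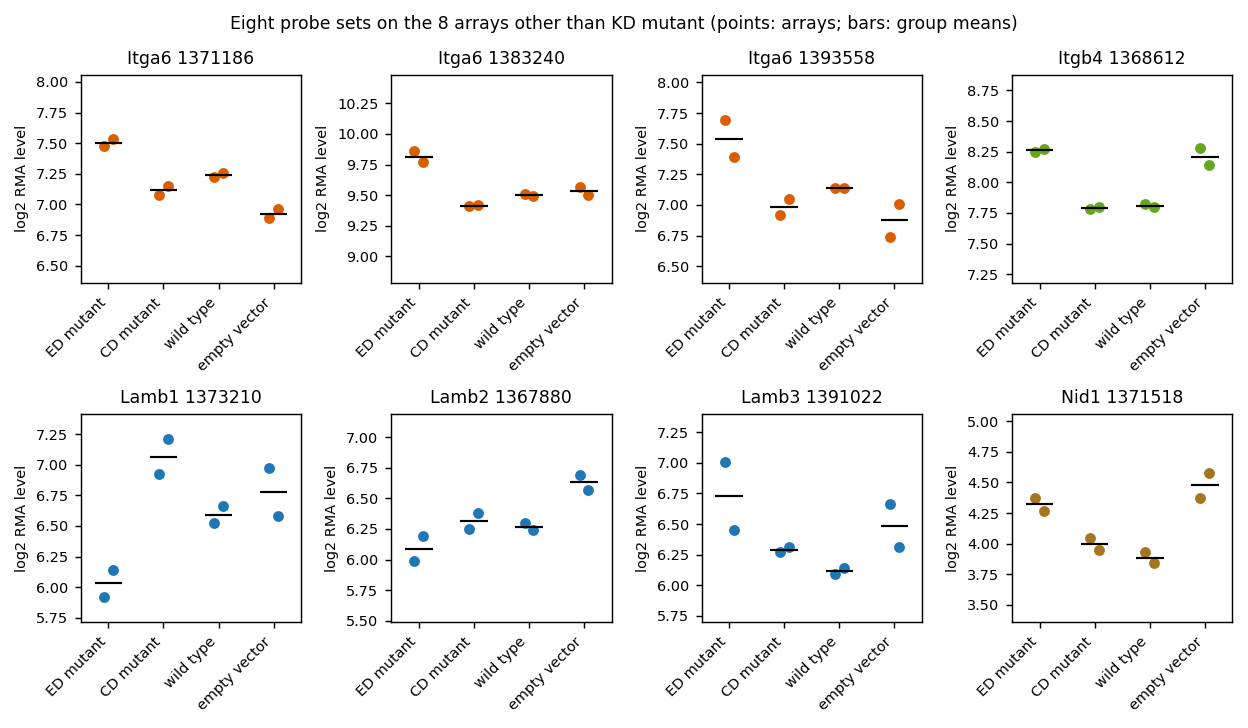
Log2 RMA levels of 8 probe sets on the 2 arrays of the ED mutant, the CD mutant, wild type and empty vector (points, arrays; bars, group means; every panel spans the same 1.7 log2 units). The Itga6 probe sets shown were picked because both ED mutant arrays lay above those of the CD mutant, wild type and empty vector. The remaining Itga6 probe set, 1371185, is not shown and averaged 5.98 in the ED mutant, against 6.07 with empty vector. Lamb1 is lowest in the ED mutant, while Itgb4 is near 8.2 in the ED mutant and with empty vector and near 7.8 in the CD mutant and with wild type.

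Itga6, the alpha6 chain that binds laminin with either beta1 or beta4, was higher in the ED mutant than with empty vector. Its probe set 1371186 read 7.48 and 7.53 in the ED mutant, 7.08 and 7.15 in the CD mutant, 7.22 and 7.26 with wild type and 6.89 and 6.96 with empty vector. The ED mutant pair lay above all other arrays and the empty vector pair below all others of these 8. The difference between the ED mutant and empty vector was 0.58 (SE 0.101, 1.49-fold, adjusted p = 0.0327 in limma). Wild type stood 0.31 above empty vector (adjusted p = 0.56) and the CD mutant 0.19 above it (adjusted p = 0.657), which did not pass. This call was lost with no filter (adjusted p = 0.0538) and without any 1 of the 4 arrays, where the difference was 0.55 to 0.61 and the adjusted p 0.128 to 0.332.

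The other 3 probe sets of Itga6 did not pass in any comparison among the 8 arrays. Probe set 1393558 read 7.69 and 7.39 in the ED mutant, 6.92 and 7.05 in the CD mutant, 7.14 and 7.14 with wild type and 6.74 and 7.01 with empty vector, and the ED mutant stood 0.67 above empty vector (adjusted p = 0.0553). Probe set 1383240 read 9.86 and 9.77 in the ED mutant, 9.41 and 9.42 in the CD mutant, 9.51 and 9.49 with wild type and 9.57 and 9.50 with empty vector. In both the ED mutant arrays lay above the other 6. The fourth, 1371185, read 6.12 and 5.85 in the ED mutant, against 5.93 and 6.21 with empty vector, and its arrays overlapped between groups. Leaving the KD mutant arrays out of filter and fit brought Itga6 1393558, Lamb1 and Lamb2 past the threshold between the ED mutant and empty vector, with adjusted p of 0.0361, 0.0438 and 0.0351.

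Itgb4, the beta4 chain, which pairs only with alpha6 and reaches keratins through plectin, fell into 2 levels among the 8 arrays. It read 8.25 and 8.27 in the ED mutant, 7.78 and 7.80 in the CD mutant, 7.82 and 7.80 with wild type and 8.28 and 8.14 with empty vector. The ED mutant and empty vector arrays did not overlap with those of the CD mutant and wild type. None of the 4 differences between them passed the test over all probe sets: they were 0.47 between the ED and CD mutants (SE 0.133, adjusted p = 0.253), 0.45 between the ED mutant and wild type (adjusted p = 0.387), -0.41 between the CD mutant and empty vector (adjusted p = 0.365) and -0.40 between wild type and empty vector (adjusted p = 0.573). Without the KD mutant arrays in filter and fit the first of these passed (adjusted p = 0.0477). Plec, the gene of plectin, averaged 9.46 in the ED mutant, against 9.13 in the CD mutant, and did not pass (adjusted p = 0.432).

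Epithelial markers stood beside these values. The summed linear level of the 11 epithelial markers was 6590 and 6720 on the ED mutant arrays, 4480 and 4740 in the CD mutant, 4950 and 4890 with wild type and 4840 and 4780 with empty vector. Cdh1 averaged 10.25 in the ED mutant, 9.67 in the CD mutant, 9.68 with wild type and 9.24 with empty vector, and Krt19, a keratin, 9.80, 9.08, 9.26 and 9.51 in the same order of groups. Not every marker was highest in the ED mutant. Cldn3 averaged 6.60, 6.64, 6.67 and 6.73 in that order, and Elf3 and Esrp1 lay within the range of the other groups. Epcam and Cldn4 lay below the filter level in all 5 groups. The linear sum leans on the brightest marker, Krt18, at 11.81, 11.29, 11.40 and 11.39 in the same order. The part of this in the Itga6, Itgb4 and Lamb3 values was not tested. Poly-A control transcripts, which report on labelling, averaged 7.70 to 7.74 in the ED mutant, 7.98 to 8.04 in the CD mutant, 7.04 to 7.79 with wild type and 7.29 to 7.51 with empty vector, and their part was not tested either.

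No difference among the 8 arrays passed for the remaining laminin receptors or for the laminin chains Lamc1 and Lama5. Itgb1, the beta1 chain shared by most matrix-binding integrins, read 9.91 to 10.15 by its brighter probe set and 7.12 to 7.29 by the other, and 0 of its differences among the 8 arrays passed. Itga3, the alpha3 chain, read 8.94 on both ED mutant arrays, 9.13 and 9.12 in the CD mutant and again with empty vector, and averaged 8.98 with wild type, with a difference of -0.19 between the ED mutant and empty vector (adjusted p = 0.829). Itga7, the alpha7 chain of muscle, read 6.48 to 6.71 by 1370937. Lamc1, the gamma1 chain present in most laminins, read 7.86 to 8.35 by 1371322, and the 2 ED mutant arrays gave the lowest and the highest of these 8 values. Lama5, the alpha5 chain of vessel and epithelial laminins, read 6.39 to 6.87 by 1388932.

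Among integrins that bind RGD motifs, Itgb5, which pairs with alphav as a vitronectin receptor, had the lowest p between the CD mutant and empty vector after Nid1. Its probe set 1398358 read 8.67 and 8.49 in the ED mutant, 8.60 and 8.72 in the CD mutant, 8.40 and 8.41 with wild type and 8.22 and 8.24 with empty vector. These 6 arrays lay above the empty vector pair, as did the KD mutant arrays. The differences from empty vector were 0.35 in the ED mutant (adjusted p = 0.205) and 0.43 in the CD mutant (SE 0.105, adjusted p = 0.237), and neither passed. A dimmer probe set, 1396133, went the other way, at 4.11 and 4.33 in the CD mutant, against 4.71 and 4.62 with empty vector, all below the filter level (difference -0.45, adjusted p = 0.341). Itgav, the alphav chain, read 5.64 to 6.15 by its brightest probe set, and Itga5, the fibronectin receptor chain, 6.33 to 6.57.

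On the 8 arrays Nid2 and 1 probe set of Nid1 had values near or below the filter level. Nid1 by 1371518 read 4.37 and 4.27 in the ED mutant, 4.05 and 3.95 in the CD mutant, 3.93 and 3.84 with wild type and 4.37 and 4.58 with empty vector. The ED mutant and empty vector arrays lay above those of the CD mutant and wild type, as for Itgb4, but every value was below the filter level, so the sizes were not measured exactly, and the probe set was tested only because it was bright on the KD mutant arrays. The largest of the differences, -0.59 between wild type and empty vector, did not pass (SE 0.112, adjusted p = 0.16). The other probe set of Nid1, 1371032, read 5.82 to 6.28 on the 8 arrays, with a difference of 0.26 between wild type and empty vector (adjusted p = 0.786). Nid2 read 4.18 and 4.35 in the ED mutant, 4.73 and 4.54 in the CD mutant, 4.64 and 4.87 with wild type and 4.62 and 4.71 with empty vector, and its difference between the ED mutant and wild type was -0.49 (adjusted p = 0.374).

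Counted over the 48 tested members, 1 was higher in the ED mutant than with empty vector and 0 were lower, beside 0.529% of all tested probe sets called, 0.369% higher and 0.16% lower. Between the ED and CD mutants 0 were higher and 1 lower, beside 0.351% called, 0.244% higher and 0.107% lower. In the other 4 comparisons that leave out the KD mutant, limma called 0 members, beside 0.164% of all probe sets for the ED mutant against wild type, 0% for the CD mutant against wild type, 0.111% for the CD mutant against empty vector and 0.0133% for wild type against empty vector. With 48 members, 1 call was 2.08% of them, and a single call more or less would move that share by as much. At an unadjusted p under 0.05 the ED mutant had 9 members against wild type, 9 against empty vector and 8 against the CD mutant, beside 7.65%, 11.4% and 9.39% of all probe sets. The same count was 3 for the CD mutant against wild type (3.48% of all), 5 for the CD mutant against empty vector (8.74% of all) and 5 for wild type against empty vector (6.54% of all). The median difference of the members lay between -0.06 and 0.01 in these 6 comparisons, and that of all tested probe sets between -0.01 and 0.

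Both ED mutant arrays lay above all 6 arrays of the CD mutant, wild type and empty vector for 5 of the 48 members, and below all 6 for 6. Of all tested probe sets 7.43% and 7.83% did so. The 5 higher were the 3 Itga6 probe sets above, Lama1, at 6.04 and 5.95 against 5.65 to 5.83, and Lama4 1389214, at 4.94 and 4.84 against 4.42 to 4.83. The 6 lower were Lamb1, Lamb2, Nid2, Itga3, Itgae and Itga2b, and for Itga3, Itga2b and Lama4 the nearest other array was almost level, as with Itga2b at 6.96 and 7.04 against 7.05 to 7.22. These genes were singled out after their values were seen.

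**Figure D3:**
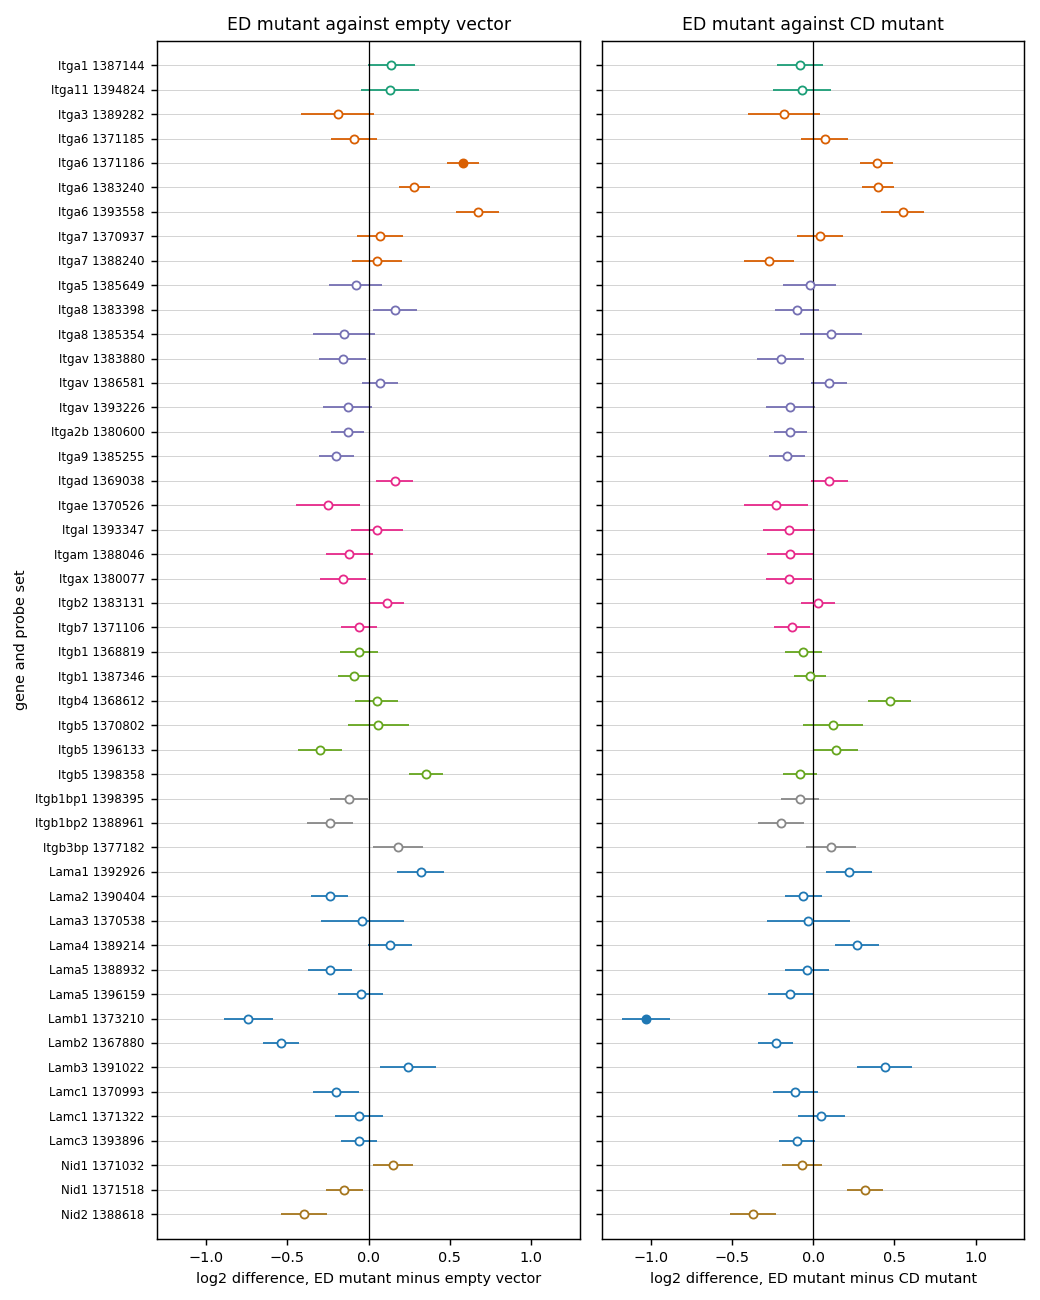
Log2 differences of the 48 tested members, ED mutant minus empty vector (left) and ED mutant minus CD mutant (right), with moderated standard errors as bars and colours by role (filled points passed at an adjusted p under 0.05). Itga6 1371186 passed at left, at 0.58, and Lamb1 passed at right, at -1.03, while most members lie near 0.

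On the arrays labelled KD mutant nearly every member differed from wild type, as did most of the array. Of the 48 tested, 27 were higher and 20 lower, beside 89.6% of all tested probe sets called, made up of 34.5% of all higher and 55.1% of all lower. Since 12 members were tested only because they were bright on the KD mutant arrays, these counts are given as a description, and for those 12 values are given with no p, since the filter had decided their direction. With no filter 54 of all 57 members changed, 29 higher and 25 lower, beside 86.4% of all probe sets. Both KD mutant arrays lay above all 8 others for 29 of the 57 members and below all 8 for 23, which 27.3% and 59.9% of all probe sets did. The median of all tested probe sets lay at -0.56 in this comparison, at -0.49 after quantile normalization and at -0.16 after median-centring of the arrays. The values below are on the deposited scale.

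Nid1 and the collagen-binding chain alpha11 had the largest differences among the tested members. Nid1 by 1371518 read 9.93 and 10.06 on the KD mutant arrays, against 3.93 and 3.84 with wild type, a log2 difference of 6.11. Itga11, the alpha11 chain, a receptor for fibrillar collagen known from fibroblasts, read 9.26 and 9.61 on the KD mutant arrays, against 4.52 and 4.07 with wild type (log2 difference 5.15). Nid2 read 8.33 and 8.70, against 4.64 and 4.87 with wild type (log2 difference 3.76). All 3 were tested only through the KD mutant arrays and had wild-type means below the filter level, so the size was not measured exactly. The wild-type mean was below that level too for Itgb5 1370802 and 1396133, Itgax, Itga8, Lama4, Itgb3bp and the dimmer probe sets of Itgav and Itga7. Sizes were likewise not exact for the falls of Itga9, Itgb7, Itgam, Itgb2, Lama1, Lama2 and Itga6 1371185, whose KD mutant means were below that level. Itga1, the other collagen-binding chain, differed by 0.76 (adjusted p = 0.00027).

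Of the 8 tested probe sets of RGD-binding alpha chains and alpha9, 5 were higher on the KD mutant arrays and 3 lower, beside 34.5% and 55.1% of all probe sets. All of the higher ones except Itgav 1393226 were tested only through the KD mutant arrays. The filter had decided their direction, so this count carries no weight. Itgav by 1393226 read 9.58 and 9.74, against 5.95 and 5.94 with wild type (log2 difference 3.71, adjusted p = 4e-10), and its other 2 probe sets, tested only through the KD mutant arrays, differed by 3.16 and 2.25. Itgb5, a beta chain, was higher by all 3 probe sets, by 1370802 the most, at 9.45 and 9.69, against 4.55 and 4.88 with wild type (log2 difference 4.85, adjusted p = 2.17e-10). Of these, 1396133 was tested only through the KD mutant arrays. Itga8, the alpha8 chain of smooth muscle and mesangium, differed by 1.94 and 1.69 by its 2 probe sets, both tested only through the KD mutant arrays. Itga5 fell by 1.10 (adjusted p = 4.04e-05) and Itga2b, the platelet chain, by 1.53 (adjusted p = 2.95e-08). Itga9, the alpha9 chain that binds tenascin, read 3.35 and 3.46 by 1385255, against 5.30 and 5.12 with wild type (log2 difference -1.80, adjusted p = 1.43e-08).

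The laminin receptors split. All 4 probe sets of Itga6 fell on the KD mutant arrays, with log2 differences of -2.36, -1.80, -1.78 and -1.55, the first at 4.97 and 4.80, against 7.22 and 7.26 with wild type (adjusted p = 6.47e-10). Itgb4 read 5.47 and 5.90 on the KD mutant arrays, against 7.82 and 7.80 with wild type (log2 difference -2.13, adjusted p = 1.92e-08). Itga7 read 8.94 and 9.36 by 1370937, against 6.64 and 6.52 with wild type (log2 difference 2.57, adjusted p = 6.38e-09), and differed by 3.40 by another probe set that was tested only through the KD mutant arrays. Itgb1 rose by 1.15 and 3.33 by its 2 probe sets. Itga3 read 9.27 and 10.24, against a mean of 8.98 with wild type, and its call (log2 difference 0.78, adjusted p = 0.00583) was lost after quantile normalization (adjusted p = 0.347).

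Of the 12 laminin probe sets tested 6 were higher and 6 lower, beside 34.5% and 55.1% of all tested probe sets. Lamb1 read 9.34 and 9.41 on the KD mutant arrays, against 6.52 and 6.66 with wild type (log2 difference 2.79, adjusted p = 4.34e-09). Lama4, the alpha4 chain of vessel walls, rose by 2.63 by its tested probe set, Lama3, the alpha3 chain, by 1.66 and Lamb2 by 1.04. Lama1, the alpha1 chain of early embryonic and epithelial laminins, read 3.98 and 4.49, against 5.76 and 5.83 with wild type (log2 difference -1.56, adjusted p = 5.49e-07). Lama2, the alpha2 chain of muscle, fell by 1.38, Lamc3 by 1.31 and Lamb3 by 1.05. The fall of Lamb3 and the rise of Lama3 went opposite ways although both chains belong to the same laminin. Each rests on a single probe set, and the KD mutant arrays differed widely for Lama3. It read 6.86 and 7.97 there, against 5.65 and 5.86 with wild type.

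**Figure D4:**
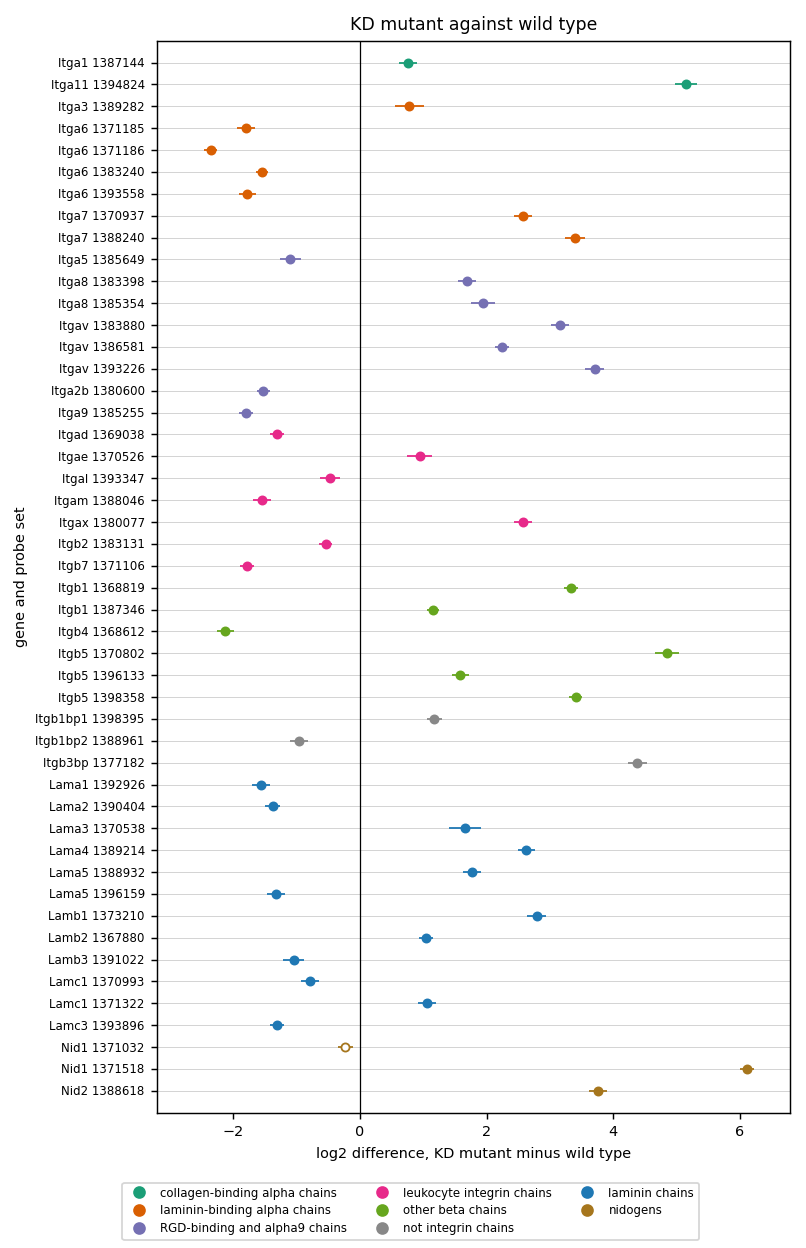
Log2 differences of the 48 tested members, KD mutant minus wild type, with moderated standard errors as bars and colours by role (filled points passed at an adjusted p under 0.05). The differences run from -2.36 for Itga6 1371186 to 6.11 for Nid1 1371518, and Nid1 1371032 is the 1 member that did not pass. Of the filled points, 12 stand for probe sets that entered the test only through the KD mutant arrays.

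Chains of leukocyte integrins and the proteins that only share the name completed the set. Itgax, the CD11c chain, read 7.22 and 7.32 on the KD mutant arrays, against 4.81 and 4.55 with wild type (log2 difference 2.58). Itgam and Itgad, whose genes follow each other with Itgax on chromosome 1 in the RefSeq gene order, fell, Itgam to 3.60 and 3.75, against 5.33 and 5.12 with wild type (log2 difference -1.55, adjusted p = 5.96e-07). Itgb7 read 4.27 and 4.17, against 6.06 and 5.95 with wild type (log2 difference -1.78, adjusted p = 1.56e-08). The falls of Itgb2, the beta chain that Itgax, Itgam, Itgad and Itgal share, and of Itgal, by 0.54 and 0.47, were lost after quantile normalization and after centring on the array median. The leukocyte marker Ptprc, CD45, lay below the filter level in all 5 groups, and the summed linear level of 7 leukocyte markers was 179 and 186 on the KD mutant arrays, against 474 and 453 with wild type. Itgb3bp by 1377182, also tested only through the KD mutant arrays, read 7.65 and 7.19, against 2.94 and 3.13 with wild type (log2 difference 4.38). Its other probe set, too dim to test, read 3.06 and 2.83, against 2.78 and 2.80 with wild type.

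Several genes had probe sets that disagreed on the KD mutant arrays. For Nid1, 1371032 read 5.91 and 6.04, against 6.28 and 6.12 with wild type, a difference of -0.23 that did not pass (adjusted p = 0.0928) and turned to 0.16 after centring on the array median, beside the difference of 6.11 by the other probe set. For Lamc1, 1371322 rose by 1.06 (adjusted p = 2.01e-05) while 1370993 fell by 0.79 (adjusted p = 0.000178). For Lama5, 1388932 rose by 1.77 (adjusted p = 1.12e-07) while 1396159, whose KD mutant mean of 3.52 lay below the filter level, fell by 1.33 (adjusted p = 1.5e-06). Lama4 and Itga7 each had a probe set too dim to test that lay lower while their tested ones were higher, for Lama4 at 2.88 and 3.02, against 3.82 and 4.35 with wild type. In limma with no filter these differed by -1.14 for Lama4 (adjusted p = 0.000287) and -0.36 for Itga7 (adjusted p = 0.0291). Itgb3bp and Itga9 each had a probe set too dim to test that differed little, beside 4.38 and -1.80 by their tested ones. The differences were 0.16 for Itgb3bp (adjusted p = 0.23 in limma with no filter) and -0.18 for Itga9 (adjusted p = 0.199). A direction for Lamc1, Lama5, Lama4 and Itga7 on the KD mutant arrays, and a difference for Nid1, Itgb3bp and Itga9, therefore holds per probe set and not per gene. All probe sets of Itga6, Itga8, Itgav, Itgb1 and Itgb5 moved 1 way within each gene. For Itga8, the dimmer probe sets of Itgav and Itgb5 1396133 the filter had decided that direction, so their agreement carries no weight.

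**Figure D5:**
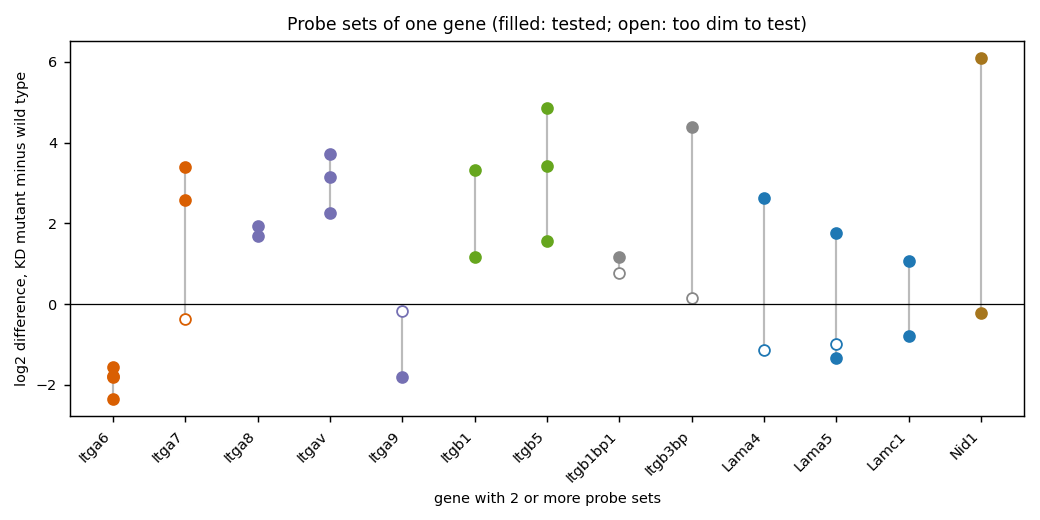
Log2 difference, KD mutant minus wild type, of every probe set of the member genes with 2 or more (filled, tested; open, too dim to test; vertical lines join the probe sets of a gene). Lama5 and Lamc1 have tested probe sets on both sides of 0, and those of Nid1 lie at 6.11 and -0.23.

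The 9 members that were not tested were single probe sets of Itga7, Itga9, Itgb1bp1, Itgb3bp, Itgbl1, Lama4 and Lama5 and the probe sets of Itgb3 and Itgb6. With no filter, 7 of these 9 passed the test between the KD mutant and wild type, 2 higher and 5 lower. Itgb3, the beta3 chain of platelets and of a vitronectin receptor, read 3.12 and 3.19 on the KD mutant arrays, against 4.47 to 4.62 on the other 8 (log2 difference from wild type -1.31, adjusted p = 8.84e-08 in limma with no filter). Itgb6, the beta6 chain of epithelia that activates TGF-beta, read 2.75 and 3.09 on the KD mutant arrays, against 3.01 to 3.46 on the other 8, with which they overlapped. At levels this low the sizes are not measured exactly.

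The partners of these proteins were read from 4 lists. Of the 35 tested focal adhesion genes, 22 tested receptors for laminin and matrix other than integrins, and 22 tested integrin ligands, limma called 0 in each of the 6 comparisons that leave out the KD mutant, with 0 to 6 of a list at an unadjusted p under 0.05. Of the 19 tested basement membrane partners, 1 fell in each ED mutant comparison and 0 changed in the other 3. It was Fbln2, fibulin 2, which binds laminin and nidogen: it averaged 6.75 in the ED mutant, 7.63 in the CD mutant, 7.52 with wild type and 7.52 with empty vector, and differed by -0.88 between the ED and CD mutants (SE 0.111, adjusted p = 0.00551). Hspg2, perlecan, averaged 7.26 in the ED mutant, against 7.63 with empty vector, and did not pass (adjusted p = 0.162).

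On the KD mutant arrays 16 of 22 tested integrin ligands were higher and 5 lower, beside 34.5% higher and 55.1% lower over all probe sets, and 5 of the 16 were tested only because they were bright on these arrays. The 3 with the lowest p were Ccn2, connective tissue growth factor, at 14.00 against 6.73 with wild type, Postn, periostin, at 9.62 against 3.58, and Col1a2, a type I collagen chain, at 13.62 against 3.88, and the fall with the lowest p was Jam2, an adhesion molecule, at 5.83 against 7.59. Postn and Col1a2 were among those 5, so the filter had decided their direction and their place by p carries no weight. Their wild-type means lay below the filter level, so the sizes were not exact. Of 35 focal adhesion genes 21 rose and 8 fell, led by p among the rises by Tgfb1i1, Kank1 and Lims1, with differences of 3.74, 3.56 and 3.39, and among the falls by Lpp, with -1.95. Of 22 receptors other than integrins 12 rose and 10 fell, with Sdc4, a syndecan, at 10.58 against 6.59, Ddr2, a collagen receptor kinase, at 8.21 against 4.34 and Cd151, a tetraspanin partner of laminin-binding integrins, at 12.37 against 8.95, while Cd81, another tetraspanin, read 9.99 against 12.35. Of 19 basement membrane partners 9 rose and 7 fell, with Col4a5, a type IV collagen chain, at 10.44 against 4.17, Smoc1 at 8.64 against 5.69 and Sparc at 12.17 against 10.15, while Ntn1, netrin 1, read 4.88 against 6.54. In these last 2 lists 1 gene each, Ddr2 and Col4a5, was tested only through the KD mutant arrays. The filter had thus decided the direction of these 2, and their place by p carries no weight. The wild-type means of Col4a5 and Ddr2 lay below the filter level, so their sizes were not exact either. The summed linear level of the 8 fibroblast markers was 24000 and 26700 on these arrays, against 245 and 244 with wild type, that of the 10 smooth muscle markers 7660 and 8370, against 3380 and 3200, and that of the 11 epithelial markers 4830 and 5320, against 4950 and 4890. The epithelial sum on the KD mutant arrays leaned on Krt7, at 11.94 against 7.16 with wild type. Of the 11 epithelial markers 8 lay below all other arrays there, beside 59.9% of all probe sets. The poly-A controls averaged 6.22 to 6.76 on the KD mutant arrays, against 7.04 to 7.79 with wild type. The part of these in the members' values was not tested.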

How the data were processed

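RNA of the transfected A7r5 cells was labelled with biotin for Affymetrix rat arrays, as the labels' protocols say. The deposited log2 values are RMA summaries of probe sets, as the submitters' processing notes state; the RMA version and the set of arrays normalized as 1 batch are not given in the sources used. RMA compresses differences at low signal. No detection calls were used, and precision is limited by 2 arrays a group. From these values, 57 control probe sets were left out, and limma 3.58.1 under R 4.3.3 was run on 22502 (5 group means, contrasts, eBayes, 11.4 moderated degrees of freedom), with two-sided p-values adjusted by Benjamini-Hochberg within each of 7 comparisons. Gene names came from the platform annotation (20826 probe sets with 1 gene, 436 with several, 9780 with none); all 57 members matched the RefSeq table of GRCr8 by Entrez identifier. Lists used the brightest probe set per gene.

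Values are given for members that passed, the 3 with the lowest p in each comparison without the KD mutant, the 6 largest rises and falls on the KD mutant arrays, genes with discordant probe sets, the nidogens, and common laminin chains and receptors. Others were named after their values were seen, among them those at the edge of the ED mutant. Members and lists were chosen with earlier results of these data known. In data simulated for the ED mutant against wild type over 22502 probe sets, limma recovered 38.8% of 67 probe sets changed by 0.5 log2, 88.1% of 67 changed by 1 and 100% of 66 changed by 2, with 12 false calls.

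Alternatives were other filters, quantile normalization, median-centring, an intensity trend with robust variance, a replicate block, and fits without the KD mutant arrays or without each array.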

Additional observations from a re-analysis of the deposited data

How the results depend on the processing

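Of 311 recalculations of 30 named differences, 0 turned sign, 9 lost the threshold and 11 gained it. These 30 were picked for a low p or a large difference on the KD mutant arrays, so a turn of sign among them was unlikely from the start. Nid1 1371032, which turned sign between the KD mutant and wild type after median-centring, was not among them. The count of members changed between the ED mutant and empty vector was 1 and became 0 with no filter, 4 with a filter at the 60th percentile, 4 after quantile normalization, 5 with an intensity trend and robust variance, 4 without the KD mutant arrays, and 0 to 0 when each array was left out in turn, where the remaining array of a group is assumed to vary like the other groups. Between the ED and CD mutants the count was 1 and became 3 with trend and robust variance, 2 without the KD mutant arrays and 0 to 0 with arrays left out. Between the CD mutant and empty vector the count of 0 became 1, Itgb5, with trend and robust variance. The cause was not tested. Counts for the other 4 comparisons stayed within 1.5 times the values given. The labels number replicates 1 and 2 in every group; the differences between these correlated by over 0.1 in 1 of 10 pairs of groups (ED and CD mutant, 0.14), so the numbers are not taken to pair samples. With the replicate number as a block 1 member changed between the ED mutant and empty vector, 1 between the ED and CD mutants, 47 between the KD mutant and wild type and 0 in the other 4. Calls over all probe sets moved by over 1.5 times too. Between the ED mutant and empty vector they were 119, against 198 at the 60th percentile, 493 with trend and robust variance, 320 without the KD mutant arrays and 19 to 37 with arrays left out. Between the ED and CD mutants they were 79, against 287 with trend and robust variance, 145 without the KD mutant arrays and 12 to 31 with arrays left out. Between the ED mutant and wild type they were 37, against 142 with trend and robust variance and 0 to 1 with arrays left out. Between the CD mutant and empty vector they were 25, against 8 with no filter, 144 with trend and robust variance, 12 with the replicate block, 43 without the KD mutant arrays and 1 with arrays left out. Between wild type and empty vector they were 3, against 68 with trend and robust variance and 1 with no filter, with the replicate block or with arrays left out.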
